A study of Rattus norvegicus with 6 samples.

Results

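Mitosis and spindle genes encode the kinases, motor proteins, checkpoint proteins and chromosome-packing complexes with which a cell divides its copied chromosomes. The set held 52 genes chosen by name, and every probe set whose annotation gave 1 of these symbols alone was taken. The set and the lists used for comparison were chosen with earlier results of these data known. How far that knowledge bears on the counts set against all genes was not tested. On the RAE2.0 arrays 64 of 31099 probe sets stood for 46 of the genes, and on the U34A arrays 21 of 8799 probe sets stood for 17. Of the 47 genes measured, 16 were on both array types, 30 on RAE2.0 only and 1, Anln, on U34A only. Cdc25c, Kif4a, Ndc80, Nek2 and Tpx2 were not analysed here because no probe set carried their symbol alone.

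The 3 populations were cultured olfactory ensheathing cells (OECs), the glia that wrap olfactory axons, taken from the olfactory nerve layer of Wistar rats. TEG3 is a clonal line from 60 day old donors, made by transfecting such a culture with a plasmid for the SV40 large T antigen and then kept long in culture. OEC Lp is a primary culture from 21 day old rats that had passed 50 population doublings, and OEC Ep a primary culture from rats of the same age, taken after 1 week and less than 3 doublings. All grew in M3 medium (DMEM with 3% serum, 20 µg/ml bovine pituitary extract and 2 µM forskolin, which raises cyclic AMP) and were harvested at confluency. TEG3 therefore differs from the primary cultures in donor age and in being 1 clone as well as in large T. Each population was hybridised once to each array type, so a ratio within a type has no replicate. The 2 RNA pools of a population came from 3 cultures each, 1 rat per culture in the case of OEC Ep, and which pool was on which array is not stated.

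Entry into mitosis is driven by the kinase Cdk1 bound to cyclins A and B, and polo and aurora kinases help build the spindle. The spindle checkpoint holds back the ubiquitin ligase APC/C until every chromosome is attached, after which Cdc20 lets it destroy securin and cyclin B. Most of these genes are transcribed late in the cell cycle. In resting cells a complex that contains the pocket protein p130 or p107 represses them through promoter elements called CHR, and in dividing cells B-Myb and Foxm1 activate them, often beside CCAAT boxes bound by the factor NF-Y. Large T binds the retinoblastoma family of pocket proteins and p53. In RNA from a whole culture, fewer dividing cells and less RNA per dividing cell cannot be told apart.

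The promoters of these genes shared short elements that the choice of genes did not use. RefSeq promoters of the rat assembly GRCr8, from 250 bases before to 50 after the transcription start, were found for 45 of the 52 genes (46 promoters, since Kif2c has 2). The letters CCAAT, read on either strand, were present in 34 of the 46 promoters (73.9%), against 37.5% of all 33469 promoters. TTTGAA, the common form of the CHR, was present in 31 (67.4%), against 18.3%, and TTCGAA in 4 (8.7%), against 1.69%. A CCAAT together with either CHR form was found in 60.9% of the members' promoters and in 7.95% of all promoters. Among promoters of genes measured on RAE2.0 the shares were 37.4% for CCAAT and 12.0% for TTTGAA. The 37 promoters of DNA replication genes, a list of S phase genes used for comparison, had CCAAT in 62.2%, TTTGAA in 5.41% and TTCGAA in 8.11%. The 101 promoters of other mitosis genes had CCAAT in 59.4%, TTTGAA in 39.6%, TTCGAA in 6.93% and CCAAT with either CHR form in 27.7%. These matches are letters in a window and were not tested as sites.

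The 150 bases before the start are shown 5′ to 3′ for 8 genes that were measured on both array types, with matches in capitals: ATTGG is CCAAT, and TTCAAA is TTTGAA, on the other strand. The sequences of Cdk1, Cdc20, Kifc1, Pttg1 and Smc4 hold both CCAAT and TTTGAA, that of Cdc25b holds CCAAT and TTCGAA, that of Ccnb1 holds CCAAT only, and that of Kif2c holds no match.
Cdk1: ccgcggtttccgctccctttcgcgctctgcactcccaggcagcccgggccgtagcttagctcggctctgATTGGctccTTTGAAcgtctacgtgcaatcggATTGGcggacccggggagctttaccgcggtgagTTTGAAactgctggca
Cdc20: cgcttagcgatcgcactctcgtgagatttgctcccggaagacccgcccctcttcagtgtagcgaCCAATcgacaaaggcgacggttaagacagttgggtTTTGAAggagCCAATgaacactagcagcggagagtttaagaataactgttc
Kifc1: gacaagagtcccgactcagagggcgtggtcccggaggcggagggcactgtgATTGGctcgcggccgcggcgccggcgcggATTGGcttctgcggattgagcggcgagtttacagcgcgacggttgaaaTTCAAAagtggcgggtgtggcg
Pttg1: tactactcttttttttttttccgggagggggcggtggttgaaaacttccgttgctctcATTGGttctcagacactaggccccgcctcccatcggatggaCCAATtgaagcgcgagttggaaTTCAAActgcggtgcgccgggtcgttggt
Smc4: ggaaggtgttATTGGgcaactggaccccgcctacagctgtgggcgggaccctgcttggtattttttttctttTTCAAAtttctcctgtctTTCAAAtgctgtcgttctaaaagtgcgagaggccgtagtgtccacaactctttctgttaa
Cdc25b: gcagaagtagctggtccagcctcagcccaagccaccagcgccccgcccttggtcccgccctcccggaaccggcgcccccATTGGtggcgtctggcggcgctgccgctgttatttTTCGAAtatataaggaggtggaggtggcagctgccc
Ccnb1: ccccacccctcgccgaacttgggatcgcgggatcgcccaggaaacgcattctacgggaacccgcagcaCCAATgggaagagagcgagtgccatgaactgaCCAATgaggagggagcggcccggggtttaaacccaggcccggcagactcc
Kif2c: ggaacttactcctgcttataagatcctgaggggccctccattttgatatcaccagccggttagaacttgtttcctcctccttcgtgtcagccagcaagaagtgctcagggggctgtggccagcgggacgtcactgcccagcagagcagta
They lie at chr20:19265143-19265292 (+ strand) for Cdk1, chr5:137255800-137255949 (- strand) for Cdc20, chr20:5000779-5000928 (+ strand) for Kifc1, chr10:28406327-28406476 (- strand) for Pttg1, chr2:155550112-155550261 (+ strand) for Smc4, chr3:138860023-138860172 (+ strand) for Cdc25b, chr2:33655226-33655375 (- strand) for Ccnb1 and chr5:135895554-135895703 (- strand) for Kif2c. In the stretch printed for Cdk1, 2 inverted CCAAT boxes alternate with 2 TTTGAA elements. Of the 2 Kif2c starts in the table the first is shown, and neither promoter held a match. Over all members the TTTGAA matches lay nearer to the start, with a median position of -26 for the first base, than the CCAAT matches, with a median of -96.

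**Figure D1:**
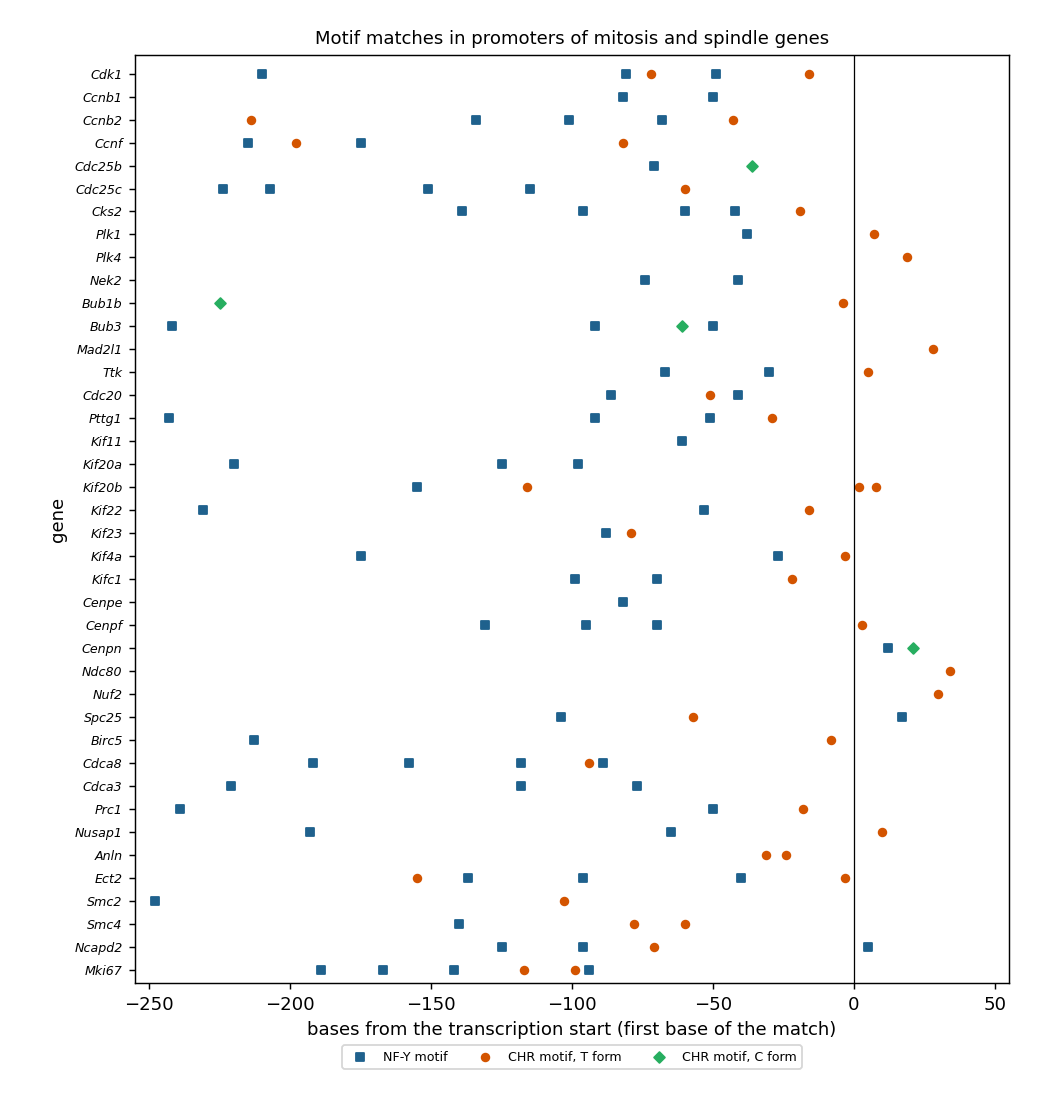
Matches to the NF-Y motif CCAAT and to the T form (TTTGAA) and C form (TTCGAA) of the CHR in the RefSeq promoters of mitosis and spindle genes, by distance of the first base from the transcription start in bases. Genes without a match are not drawn; CCAAT matches have a median position of -96 and TTTGAA matches of -26.

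Each array had 59.1 to 61.8% of probe sets above the floor of its type, a signal of 129 on U34A and 168 on RAE2.0. Signals below the floor, the 40th percentile of the type, were set to that value. The arrays of a type were scaled alike and share the floor, so these shares were largely set by the processing. Levels of cell type markers differed between the populations. Sox10, a transcription factor of neural crest glia, had signals of 201 in TEG3, 129 in OEC Lp and 2906 in OEC Ep on U34A. Its RAE2.0 signals were 233 in TEG3, 168 in OEC Lp and 5745 in OEC Ep, and S100b was at or near the floor in TEG3 and OEC Lp on both types. Of 12 OEC and Schwann cell markers on RAE2.0, 1 was above the floor in TEG3, 3 in OEC Lp and 12 in OEC Ep, with summed signals of 1379 in TEG3, 1219 in OEC Lp and 129174 in OEC Ep. Of 10 on U34A, 9 were above it in TEG3, 6 in OEC Lp and 10 in OEC Ep, with summed signals of 10895 in TEG3, 9460 in OEC Lp and 76729 in OEC Ep. Of 14 microglia and macrophage markers on RAE2.0, 3 were above it in TEG3, 2 in OEC Lp and 12 in OEC Ep, and their summed signal was 1175 in TEG3, 1215 in OEC Lp and 62384 in OEC Ep. On U34A that sum was 995 in TEG3, 1068 in OEC Lp and 28114 in OEC Ep. Aif1, which marks microglia, was at the floor in TEG3 and OEC Lp on both types and had a signal of 1408 on U34A and 1223 on RAE2.0 in OEC Ep. Ngfr, the p75 receptor used to identify OECs, had signals of 3625 in TEG3, 2564 in OEC Lp and 12725 in OEC Ep on U34A, and on RAE2.0 it was at the floor in TEG3 and OEC Lp and 12527 in OEC Ep. The RAE2.0 signals of 12 fibroblast and meningeal markers summed to 42262 in TEG3, 144576 in OEC Lp and 138167 in OEC Ep. The near sums of the primary cultures hide opposite differences. In OEC Lp against OEC Ep 6 of the 12 were at least 2-fold higher and 4 at least 2-fold lower. Over all genes the share was 10.4% in each direction. On U34A 2 of 10 were at least 2-fold higher and 4 at least 2-fold lower, against 10.9% and 10.1% of all genes. The labels give a purity of over 90% for both primary cultures. The part of these marker differences in the mitosis gene results was not tested.

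TEG3 had the highest signal of the 3 populations for nearly every mitosis gene. On RAE2.0 it was highest for 46 of 46 genes, where 38.6% of all genes were highest in TEG3, and on U34A for 15 of 17, against 33.5%. Of these 15, Kif11 and Smc2 passed the filter on U34A through TEG3 alone, which fixed it as the highest; without such genes TEG3 was highest for 13 of 15, against 29.7% of all genes. OEC Lp was highest for Bub1b and Pttg1, though for Bub1b by only 1.06-fold over TEG3, with its 2 probe sets of opposite sign. The array types differed in the order of the primary cultures. On RAE2.0 the order was TEG3, OEC Ep, OEC Lp for 38 of 46 genes (14.1% of all genes), while on U34A it was TEG3, OEC Lp, OEC Ep for 13 of 17 (16.5% of all genes) and TEG3 alone was above the floor for Kif11 and Smc2.

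**Figure D2:**
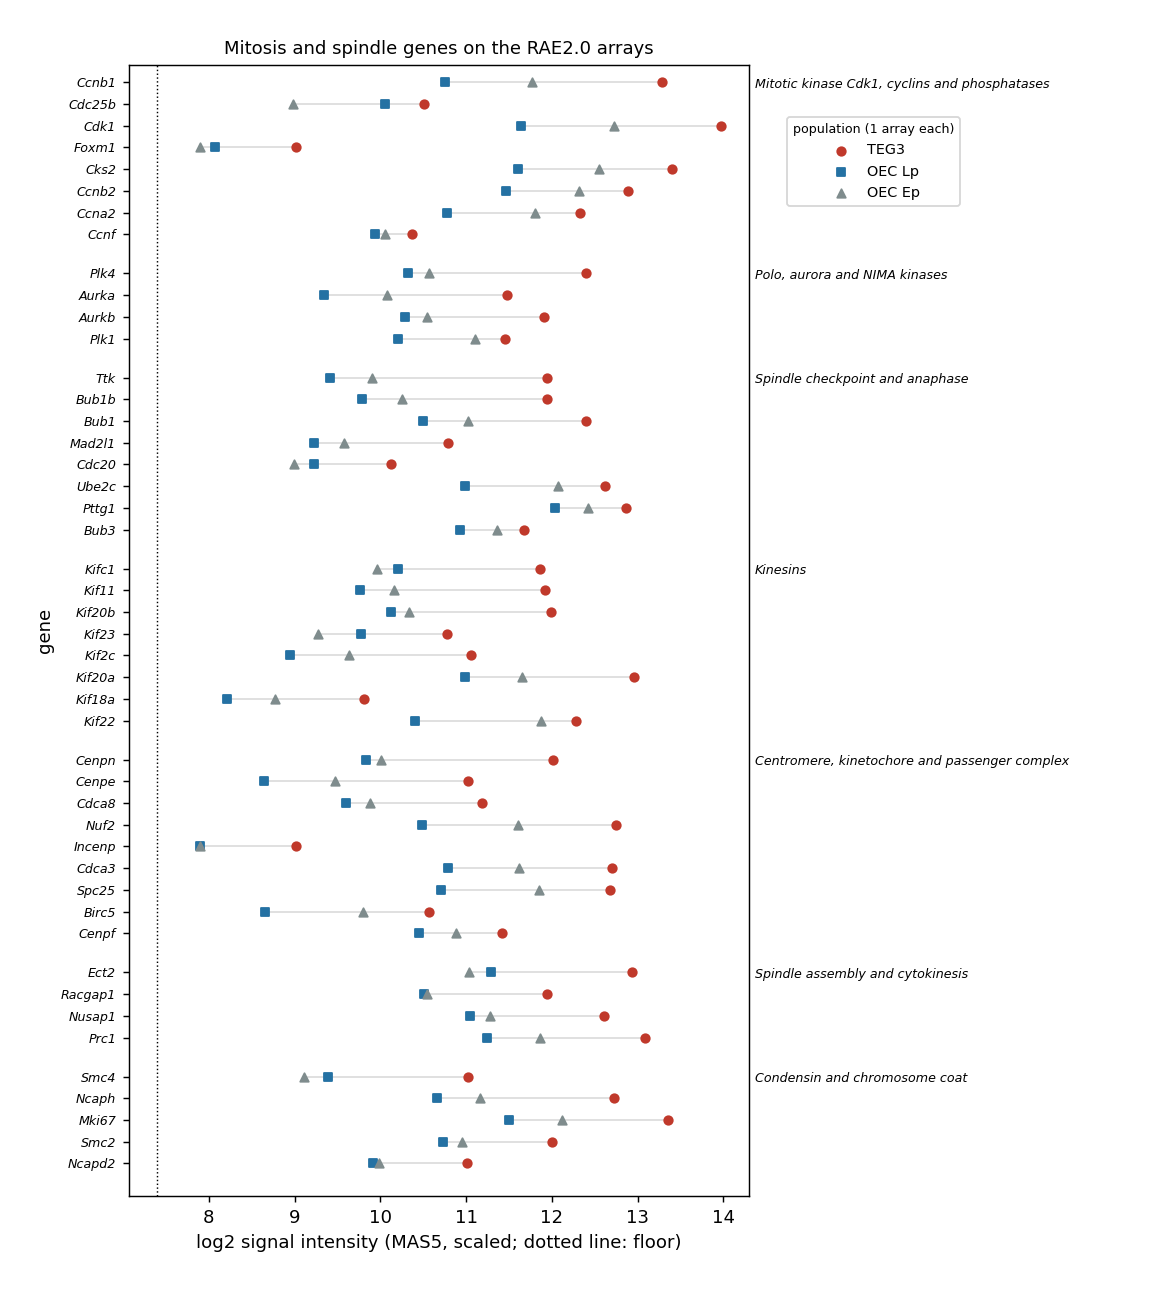
Signals of 46 mitosis and spindle genes on the RAE2.0 arrays, on a log2 axis, with 1 point per population; a gene with several probe sets is drawn at their geometric mean. TEG3 (circles) is highest for all 46 genes, and OEC Lp (squares) lies below OEC Ep (triangles) for 38.

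The immortal line was first set against short-term primary cells. On RAE2.0, 34 of 46 genes were at least 2-fold higher in TEG3 and 0 were 2-fold lower, against 12% and 10.6% of all 11542 genes, and all 46 were higher by some amount (56% of all genes; 39.6% were lower). The median log2 ratio was 1.24, a 2.37-fold difference, against 0.11 for all genes. On U34A, 11 of 17 genes were at least 2-fold higher and 0 lower, against 10.5% and 12.8% of 3723 genes, with a median log2 ratio of 1.22 against 0.00. All 17 were higher by some amount there, where 47.9% of all genes were higher and 47.8% lower. Of these, Kif11 and Smc2 passed the filter on U34A through TEG3 alone, which fixed their direction. Without such genes 15 of 15 were higher there, against 45.0% of all genes. Kifc1, among these 15, was at the floor in OEC Ep on U34A and could not have been lower in TEG3. The 16 genes on both types were higher in TEG3 on each (34.3% of all genes on both types), and 10 were at least 2-fold higher on each (3.93%). For Kif11 and Smc2, among the 16, the filter had set the direction on U34A, and Kifc1 could not have been lower in TEG3 there. No gene passed when the types were fitted together with limma: 0 of 16 had an adjusted p under 0.05, against 4.44% of all 3130 genes, although 13 of 16 had an unadjusted p under 0.05, all of them higher in TEG3, against 21.7% of all genes. Without genes that passed the filter on U34A through TEG3 alone it was 11 of 14, against 21.8%. The lowest adjusted p was that of Cdc25b, a phosphatase that switches Cdk1 on, with a log2 fold of 1.33 ± 0.31 (SE, limma adjusted p = 0.0861). Smc4, a condensin subunit, had 1.60 ± 0.41 (limma adjusted p = 0.0987), and Kifc1, a minus-end kinesin, 2.41 ± 0.62 (limma adjusted p = 0.0997). A probe set of Cdc25b and that of Kifc1 were at the floor in OEC Ep on U34A. Without the U34A array of OEC Ep the Kifc1 fold was 1.51, and without its RAE2.0 array 3.31.

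TEG3 against OEC Lp contrasts the large T line with primary cells that had also been kept long in culture. On RAE2.0 the difference was larger than against OEC Ep for most genes: 38 of 46 were at least 2-fold higher in TEG3 and 0 lower, against 9.61% and 8.69% of all genes, with a median log2 ratio of 1.65 against 0.00. All 46 were higher by some amount (49.5% of all genes). On U34A it was small, with 1 of 17, Kif2c, at least 2-fold higher and 0 lower (8.06% and 11.5% of all genes) and a median of 0.36 against 0.00. Bub1b and Pttg1 were lower in TEG3 there (2 of 17, against 48.6% of all genes). The 16 genes on both types had medians of 1.63 on RAE2.0 and 0.36 on U34A, so the gap between the types remained over a shared set of genes. Of these, 14 were higher in TEG3 on both types (26.5% of all genes) and 1 was at least 2-fold higher on both (2.59%). By limma 0 of 16 passed, against 1.25% of all genes, and 4 of 16 had an unadjusted p under 0.05 (15.4% of all genes). The lowest p was that of Kif11, the kinesin that pushes spindle poles apart, with a log2 fold of 1.53 ± 0.40 (SE, limma adjusted p = 0.170), followed by Smc2 with 0.97 ± 0.32 (limma adjusted p = 0.243) and Plk1 with 1.04 ± 0.39 (limma adjusted p = 0.297). Kif11 and Smc2 passed the filter on U34A through TEG3 alone, which had to be the higher there. Without such genes 2 of 14 genes had an unadjusted p under 0.05 (15.3% of all genes). Without the RAE2.0 array of TEG3 the Kif11 fold was 0.99. Without the U34A array of OEC Lp the Plk1 fold was 1.46, and without its RAE2.0 array 0.62.

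OEC Lp against OEC Ep sets primary cells kept long in culture against short-term ones, and here the array types went opposite ways. The 2 populations also differed in levels of cell type markers, and the parts of culture time and cell content cannot be told apart. On U34A, 10 of 17 genes were at least 2-fold higher in OEC Lp and 0 lower, against 10.9% and 10.1% of all genes, with a median log2 ratio of 1.11, and 15 were higher by some amount (49.2% of all genes). Kifc1, Kif11 and Smc2 were at the floor in OEC Ep there and could not have been lower in OEC Lp. On RAE2.0, 1 of 46 was at least 2-fold higher and 8 lower, against 10.4% in each direction, with a median of -0.45 against 0.09 for all genes, and 38 genes were lower and 8 higher by some amount (41.3% and 55.4% of all genes). The 8 that were at least 2-fold lower were Kif22, Birc5, Spc25, Nuf2, Cdk1, Ube2c, Ccna2 and Ccnb1. Of the 16 genes on both types, 9 were higher in OEC Lp on U34A and lower on RAE2.0, against 15.7% of all genes on both types, 5 were higher on both (35.5%) and 0 were at least 2-fold higher on both (4.06%). The 9 were Aurkb, Bub1b, Ccnb1, Cdk1, Kif2c, Plk1, Plk4, Pttg1 and Racgap1. For Ccnb1 and Cdk1 the ratio was at least 2-fold in opposite directions.

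By limma 0 of 16 genes passed in OEC Lp against OEC Ep, against 6.13% of all genes, and 1 of 16 had an unadjusted p under 0.05 (19.6% of all genes). That gene was Cdc25b, with a log2 fold of 0.79 ± 0.31 (SE, limma adjusted p = 0.251). Kifc1 had 1.52 ± 0.62 (limma adjusted p = 0.260) and Cdc20 1.03 ± 0.44 (limma adjusted p = 0.292). Cdc25b, Kifc1 and Cdc20 each include a probe set at the floor in OEC Ep on 1 array type. That of Cdc20 was at the floor in OEC Lp as well. Without the U34A array of OEC Lp the fold of Kifc1 was 0.50 and that of Cdc20 0.42, and without its RAE2.0 array 2.55 and 1.63. The U34A ratio was the larger in 15 of 16 genes, by a median of 1.37 on the log2 scale, where the median gap over all genes on both types was 0.02. Across the 16 genes the ratios of the types had a Pearson r of -0.09 here, where it was 0.63 over all 3130 genes. With TEG3 over OEC Ep r was 0.38 for the 16 genes and 0.68 for all, and with TEG3 over OEC Lp 0.35 and 0.52. The genes share arrays and the comparisons share populations, so these are descriptions. The 16 genes also span a narrower range of ratios than all genes, so their r is not on a like footing. In OEC Lp over OEC Ep on U34A they span log2 ratios of 0.00 to 2.81, against -6.92 to 5.30 for all genes of that type.

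One sign of RNA quality also differed between the array types. The 3′ to 5′ signal ratio of the Gapdh control was 1.54 in TEG3, 1.52 in OEC Lp and 1.96 in OEC Ep on U34A, and that of beta-actin 1.28 in TEG3, 1.42 in OEC Lp and 1.84 in OEC Ep. On RAE2.0 the Gapdh ratio was 1.02 in TEG3, 0.981 in OEC Lp and 1.02 in OEC Ep and the beta-actin ratio 1.54 in TEG3, 1.55 in OEC Lp and 1.54 in OEC Ep. OEC Ep thus stood apart on U34A only. The log2 ratio on U34A minus that on RAE2.0 had a median of 1.37 over the 16 genes in OEC Lp over OEC Ep. That median was -0.19 in TEG3 over OEC Ep and -1.36 in TEG3 over OEC Lp. The part of RNA quality in the result was not tested.

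**Figure D3:**
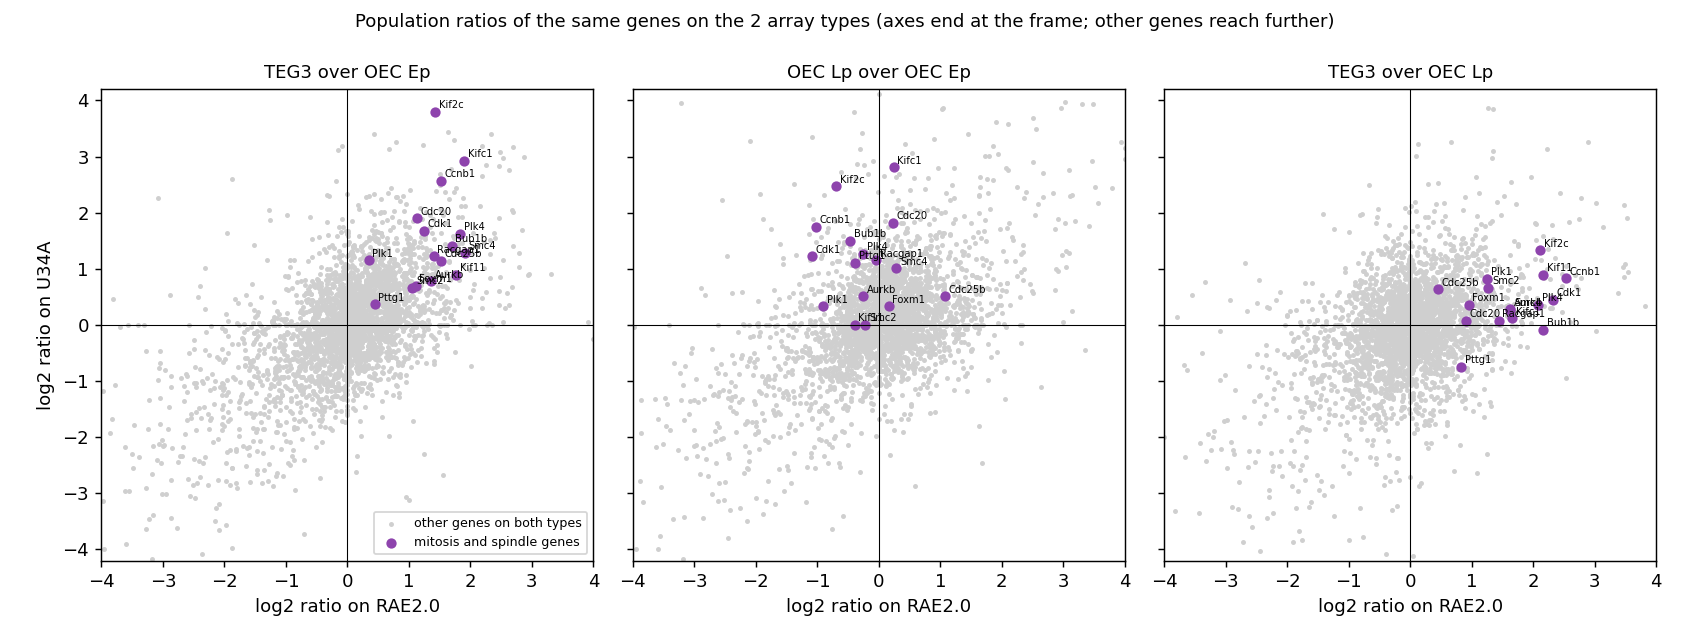
Log2 ratios between populations on RAE2.0 (horizontal) and U34A (vertical) for 16 mitosis and spindle genes on both array types, named, over all other genes on both types (grey). In TEG3 over OEC Ep all 16 lie in the upper right, in OEC Lp over OEC Ep 9 lie in the upper left, and in TEG3 over OEC Lp most lie at the right near 0 on the vertical axis.

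Cdk1 and its partner cyclin B1 had ratios of opposite sign on the array types in OEC Lp against OEC Ep. Cdk1, the mitotic kinase, had signals of 2542 in TEG3, 1862 in OEC Lp and 799 in OEC Ep on U34A. Its RAE2.0 signals were 16022 in TEG3, 3203 in OEC Lp and 6783 in OEC Ep. OEC Lp was thus 2.33-fold above OEC Ep on U34A and 2.12-fold below it on RAE2.0, with TEG3 above both on each type. Ccnb1, cyclin B1, had signals of 4424 in TEG3, 2493 in OEC Lp and 745 in OEC Ep on U34A. Its RAE2.0 signals were 9983 in TEG3, 1724 in OEC Lp and 3492 in OEC Ep. On U34A both of its probe sets were at least 3-fold above OEC Ep in OEC Lp, and on RAE2.0 both were lower, with log2 ratios of -1.09 and -0.95. The opposition therefore held for 4 probe sets of 1 gene.

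Of the other cyclins, measured on RAE2.0 only, Ccna2 (cyclin A2) had signals of 5130 in TEG3, 1758 in OEC Lp and 3573 in OEC Ep, and Ccnb2 (cyclin B2) of 7547 in TEG3, 2826 in OEC Lp and 5096 in OEC Ep. Both were higher in TEG3 than in OEC Ep, by 1.44-fold and 1.48-fold, and lowest in OEC Lp. Ccnf, the cyclin F of a ubiquitin ligase, had the smallest spread of all members on this type, with 1318 in TEG3, 980 in OEC Lp and 1065 in OEC Ep. Cks2, a small subunit that binds Cdk1, had 10818 in TEG3, 3120 in OEC Lp and 6000 in OEC Ep. Cdc25b stood apart from these: its signals were 723 in TEG3, 465 in OEC Lp and 327 in OEC Ep on U34A and 1453 in TEG3, 1064 in OEC Lp and 505 in OEC Ep on RAE2.0, so that OEC Lp lay between TEG3 and OEC Ep on both types. Of the 46 members on RAE2.0 it alone was at least 2-fold above OEC Ep in OEC Lp (2.11-fold), and 1 of its 2 U34A probe sets was at the floor in OEC Ep. Foxm1, the transcription factor of mitotic genes, had 566 in TEG3, 440 in OEC Lp and 349 in OEC Ep on U34A and 517 in TEG3, 268 in OEC Lp and 239 in OEC Ep on RAE2.0, also in that order. Its 2 RAE2.0 probe sets had log2 ratios of 2.07 and 0.16 in TEG3 against OEC Ep, and the second of them was at the floor in OEC Lp. In OEC Lp against OEC Ep they had 0.45 and -0.12, so the order of the primary cultures there rested on the first.

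Among the kinases of the spindle, Plk4, which starts centriole copying, had signals of 1606 in TEG3, 1256 in OEC Lp and 520 in OEC Ep on U34A. Its RAE2.0 signals were 5416 in TEG3, 1279 in OEC Lp and 1521 in OEC Ep. TEG3 was 3.09-fold and 3.56-fold above OEC Ep. Plk1, the polo kinase of mitotic entry and exit, had 5426 in TEG3, 3073 in OEC Lp and 2441 in OEC Ep on U34A and 2806 in TEG3, 1176 in OEC Lp and 2205 in OEC Ep on RAE2.0. It had the smallest ratio of the group in TEG3 against OEC Ep on RAE2.0, 1.27-fold, and the group's lowest signal in OEC Lp relative to OEC Ep, 1.87-fold lower. Aurkb, the aurora kinase of the chromosomal passenger complex, had 779 in TEG3, 647 in OEC Lp and 454 in OEC Ep on U34A and 3854 in TEG3, 1249 in OEC Lp and 1495 in OEC Ep on RAE2.0. Aurka, the aurora kinase of spindle poles, was on RAE2.0 only, with 2844 in TEG3, 651 in OEC Lp and 1076 in OEC Ep. It had the group's largest ratio in TEG3 against OEC Lp, 4.37-fold.

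TEG3 was at least 2-fold above OEC Ep for 5 of the 8 checkpoint and anaphase genes on RAE2.0, against 12% of all genes. Ttk, the kinase also called Mps1 that starts checkpoint signalling, had signals of 3945 in TEG3, 682 in OEC Lp and 957 in OEC Ep, a 4.12-fold difference between TEG3 and OEC Ep and the largest of all members on this type. Bub1b, the checkpoint protein BubR1, had 3936 in TEG3, 882 in OEC Lp and 1214 in OEC Ep on RAE2.0 and 611 in TEG3, 649 in OEC Lp and 229 in OEC Ep on U34A. OEC Lp and TEG3 were thus nearly level on U34A and 4.46-fold apart on RAE2.0. Bub1, a kinase at unattached kinetochores, had 5378 in TEG3, 1442 in OEC Lp and 2074 in OEC Ep on RAE2.0, and Mad2l1, the inhibitor of Cdc20, 1773 in TEG3, 600 in OEC Lp and 762 in OEC Ep as the mean of 3 probe sets. Bub3, the partner of Bub1 and BubR1, differed least in this group, with 3267 in TEG3, 1952 in OEC Lp and 2632 in OEC Ep.

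Cdc20 and Pttg1, which act where the checkpoint ends, differed between the array types. Cdc20, the activator of APC/C, had signals of 4778 in TEG3, 4534 in OEC Lp and 1282 in OEC Ep on U34A. On RAE2.0 the mean of its 4 probe sets, 1 of them at the floor in both primary cultures, was 1112 in TEG3, 596 in OEC Lp and 509 in OEC Ep, and the brightest of them had 4481 in TEG3, 2009 in OEC Lp and 1555 in OEC Ep. OEC Lp was thus level with TEG3 on U34A and nearer to OEC Ep on RAE2.0. Pttg1, securin, was 1.67-fold lower in TEG3 than in OEC Lp on U34A, with 3493 in TEG3, 5849 in OEC Lp and 2711 in OEC Ep. On RAE2.0 it had 7444 in TEG3, 4196 in OEC Lp and 5482 in OEC Ep. Ube2c, the ubiquitin-conjugating enzyme of APC/C, was on RAE2.0 only, with 6291 in TEG3, 2029 in OEC Lp and 4288 in OEC Ep, and was 2.11-fold lower in OEC Lp than in OEC Ep.

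**Figure D4:**
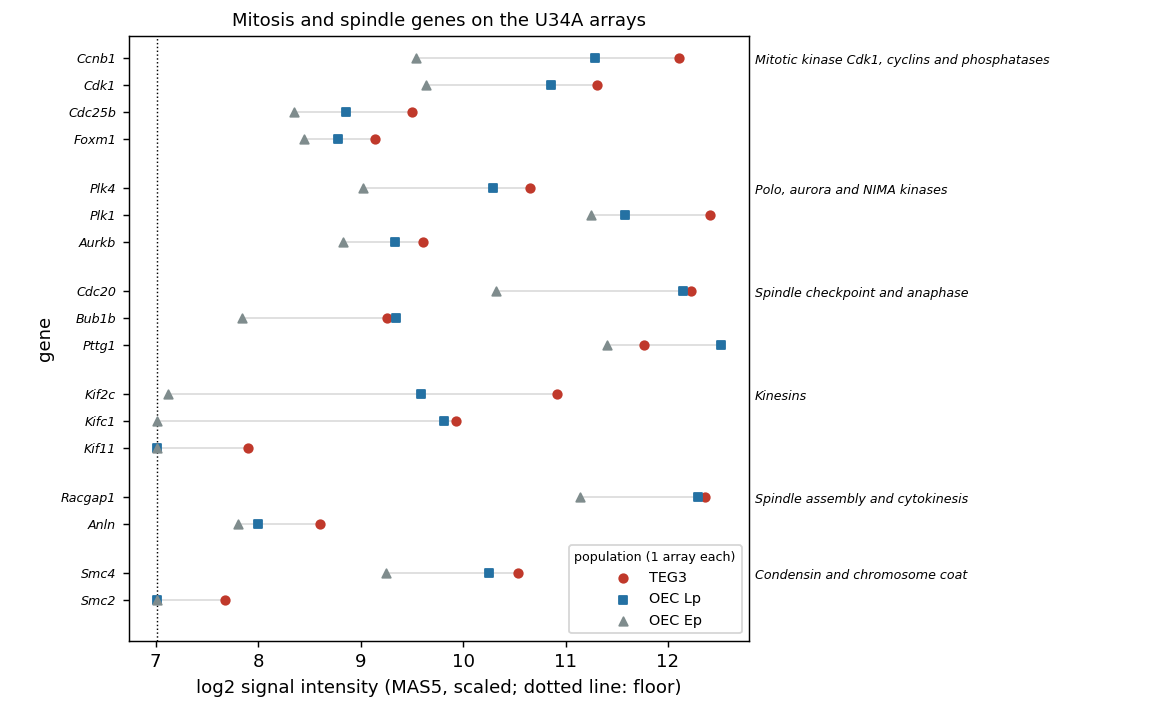
Signals of 17 mitosis and spindle genes on the U34A arrays, on a log2 axis, with 1 point per population and the floor as a dotted line. OEC Ep (triangles) is lowest for 15 genes and shares the floor with OEC Lp (squares) for Kif11 and Smc2, while TEG3 (circles) is highest for 15.

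Kinesins, the motors of the spindle, gave the largest ratios on U34A. Kif2c, which takes microtubules apart at centromeres, had signals of 1938 in TEG3, 772 in OEC Lp and 139 in OEC Ep there, a 13.9-fold difference between TEG3 and OEC Ep in which OEC Ep was just above the floor. On RAE2.0 it had 2128 in TEG3, 491 in OEC Lp and 793 in OEC Ep, a 2.68-fold difference, with OEC Lp the lowest. Kifc1 had 979 in TEG3, 903 in OEC Lp and, at the floor, 129 in OEC Ep on U34A, so TEG3 was at least 7.58-fold and OEC Lp at least 6.99-fold above OEC Ep, and 3731 in TEG3, 1181 in OEC Lp and 999 in OEC Ep on RAE2.0. Kif11 was above the floor on U34A in TEG3 only, at 239, and had 3889 in TEG3, 866 in OEC Lp and 1138 in OEC Ep on RAE2.0. Of the kinesins on RAE2.0 only, Kif22, which moves chromosome arms, had 4973 in TEG3, 1352 in OEC Lp and 3745 in OEC Ep. It was the member lowest in OEC Lp relative to OEC Ep, 2.77-fold, and differed little between TEG3 and OEC Ep, 1.33-fold. Kif23, a motor of the central spindle, went the other way, with 1748 in TEG3, 874 in OEC Lp and 616 in OEC Ep. Kif20a, Kif20b and Kif18a, motors of cytokinesis and chromosome alignment, had TEG3 to OEC Ep ratios of 2.49, 3.14 and 2.05-fold and were lower in OEC Lp than in OEC Ep.

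Centromere and kinetochore genes were on RAE2.0 only, and 6 of 9 were at least 2-fold higher in TEG3 than in OEC Ep (12% of all genes). Cenpn, a protein that reads the centromeric nucleosome, had the largest ratio, 4.01-fold, with signals of 4120 in TEG3, 913 in OEC Lp and 1027 in OEC Ep. Cenpe, a kinesin that carries chromosomes to the equator, had 2079 in TEG3, 399 in OEC Lp and 707 in OEC Ep and the group's largest ratio in TEG3 against OEC Lp, 5.21-fold. Cenpf, a large protein of the outer kinetochore, differed least, with 2727 in TEG3, 1394 in OEC Lp and 1888 in OEC Ep. Nuf2 and Spc25, subunits of the Ndc80 complex that grips microtubules, had 6902 in TEG3, 1438 in OEC Lp and 3106 in OEC Ep, and 6540 in TEG3, 1677 in OEC Lp and 3696 in OEC Ep. Both were over 2-fold lower in OEC Lp than in OEC Ep, as was Birc5, the survivin of the passenger complex, with 1521 in TEG3, 402 in OEC Lp and 886 in OEC Ep. The passenger protein borealin, Cdca8, had 2330 in TEG3, 776 in OEC Lp and 944 in OEC Ep. Incenp, the scaffold of that complex, had 517 in TEG3, 238 in OEC Lp and 238 in OEC Ep as the mean of 3 probe sets, which disagreed on the sign of OEC Lp against OEC Ep. Cdca3, a trigger of mitotic entry, had 6670 in TEG3, 1768 in OEC Lp and 3132 in OEC Ep.

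Genes of the central spindle and of cytokinesis on RAE2.0 were all at least 2-fold higher in TEG3 than in OEC Ep (4 of 4). Over all genes the share was 12%. On U34A 1 of 2 was at least 2-fold higher, against 10.5% of all genes. Ect2, the exchange factor that activates RhoA at the cleavage furrow, had signals of 7843 in TEG3, 2507 in OEC Lp and 2101 in OEC Ep, a 3.73-fold difference between TEG3 and OEC Ep. Racgap1, the centralspindlin subunit that recruits Ect2, had 3949 in TEG3, 1455 in OEC Lp and 1494 in OEC Ep on RAE2.0 and 5249 in TEG3, 5006 in OEC Lp and 2254 in OEC Ep on U34A. The primary cultures were thus level on RAE2.0, and TEG3 and OEC Lp level on U34A. Prc1, which bundles microtubules of the central spindle, had 8729 in TEG3, 2425 in OEC Lp and 3732 in OEC Ep, and Nusap1, a spindle microtubule protein, 6243 in TEG3, 2104 in OEC Lp and 2488 in OEC Ep. Anln, anillin, a scaffold of the contractile ring, was read on U34A only, with 389 in TEG3, 255 in OEC Lp and 223 in OEC Ep.

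Condensins and the chromosome coat protein were likewise at least 2-fold higher in TEG3 than in OEC Ep on RAE2.0 (5 of 5, against 12% of all genes). On U34A 1 of 2 was, against 10.5% of all genes. The condensin ATPase Smc4 had signals of 2083 in TEG3, 672 in OEC Lp and 552 in OEC Ep on RAE2.0 and of 1480 in TEG3, 1220 in OEC Lp and 607 in OEC Ep on U34A, so that OEC Lp was nearer to OEC Ep on RAE2.0 and nearer to TEG3 on U34A. Its partner Smc2 had 4113 in TEG3, 1702 in OEC Lp and 1978 in OEC Ep on RAE2.0 and was above the floor on U34A in TEG3 only, at 204. Ncaph and Ncapd2, non-ATPase subunits of condensin I, had 6767 in TEG3, 1615 in OEC Lp and 2292 in OEC Ep, and 2055 in TEG3, 968 in OEC Lp and 1011 in OEC Ep. Mki67, the Ki-67 protein that coats mitotic chromosomes and marks cycling cells, had 10492 in TEG3, 2896 in OEC Lp and 4430 in OEC Ep. TEG3 was 2.37-fold above OEC Ep for Mki67, and OEC Lp 1.53-fold below it.

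Probe sets of the same gene mostly gave the same sign. In TEG3 against OEC Ep all 63 probe sets kept on RAE2.0 and all 20 on U34A were higher in TEG3, against 55% and 47.8% of all probe sets kept. In TEG3 against OEC Lp all 63 on RAE2.0 and 18 of 20 on U34A were, against 48.9% and 45.4%. The U34A probe sets of Kif11 and Smc2 and 1 RAE2.0 probe set of Cdc20 were above the floor in TEG3 alone. The filter thus fixed their direction in both comparisons. In OEC Lp against OEC Ep, 12 of 63 were higher on RAE2.0 and 50 lower, against 55.4% and 40.9% of all probe sets. On U34A 18 of 20 were higher and 0 lower, against 48.9% and 45.5%. The U34A probe sets of Kifc1, Kif11 and Smc2 and 1 of Cdc25b were at the floor in OEC Ep. They could thus not come out lower in OEC Lp or TEG3 than in OEC Ep. On RAE2.0 1 probe set of Foxm1 was at the floor in OEC Lp, so OEC Lp could not come out the higher population for it. The 13 genes with several probe sets on RAE2.0 had 1 sign in 9 cases in that comparison, and Cdc20, Foxm1, Incenp and Racgap1 did not. On U34A the probe sets of Bub1b differed in sign in TEG3 against OEC Lp, with log2 ratios of 0.16 and -0.34.

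Other genes of mitosis, a list of 113 further names, had 100 members on RAE2.0 and 20 on U34A. In TEG3 against OEC Ep 50 of the 100 were at least 2-fold higher and 2 lower on RAE2.0 (12% and 10.6% of all genes). Their median log2 ratio was 0.97. On U34A 8 of 20 were at least 2-fold higher and 1 lower (10.5% and 12.8% of all genes), with a median of 0.58. In OEC Lp against OEC Ep the types again differed in sign, with medians of -0.22 on RAE2.0 and 0.77 on U34A. By limma 0 of the 18 on both types passed in TEG3 over OEC Ep, OEC Lp over OEC Ep or TEG3 over OEC Lp. Over all genes 4.44%, 6.13% and 1.25% passed, in that order. An unadjusted p under 0.05 was found for 5, 2 and 1 of the 18, against 21.7%, 19.6% and 15.4% of all genes. DNA replication genes had larger TEG3 ratios than the mitosis genes, with medians in TEG3 against OEC Ep of 2.14 over 36 genes on RAE2.0 and 1.91 over 15 on U34A. Of the 15 on both types, 4 were called higher in TEG3 against OEC Ep by limma and 0 lower, against 4.44% of all genes called in either direction. The 4 were Mcm7, Pola2, Pold1 and Prim1, named after their values were seen. The medians of the DNA replication genes in OEC Lp against OEC Ep were 0.08 on RAE2.0 and 1.10 on U34A, again the larger on U34A. The difference between the lists was not tested.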

How the data were processed

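Total RNA of 3 rat OEC populations was measured on 3 U34A and 3 RAE2.0 Affymetrix arrays. The deposited values are signal intensities per probe set on a linear scale, obtained by the authors with MAS5, per the submitters' processing notes; Microarray Suite 5.0 served, per the series' design text, to filter probe sets at a setting that is not given. No detection calls were used. Each array was scaled to the mean of the 2% trimmed means of its type, control probe sets (59 on U34A, 57 on RAE2.0) were left out, and signals were floored at the 40th percentile of the type. Probe sets above the floor on at least 1 array and with 1 gene symbol were averaged per gene on the log2 scale (3723 and 11542 genes); 1 probe set of Cdc25b and 1 of Cdc20 were dropped and no member was lost. Kif11 and Smc2 passed on U34A through TEG3 alone. Within an array type, the ratio of a measured signal to one at the floor is a lower bound; folds from limma are not bounds.

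For the 3130 genes common to the array types, limma 3.58.1 (R 4.3.3) was run with terms for population and for array type, the replicate block, over all 6 arrays (2 residual and 3.61 prior degrees of freedom). Moderated p-values were adjusted by Benjamini-Hochberg over all of them. What is left over is how far U34A and RAE2.0 differ, so the p-values measure a spread that may be technical. Within a type no test was possible, and genes were counted at a 2-fold difference. The fit was tested on simulated data with the same spread of noise for every gene. That test does not cover disagreement between the array types gene by gene. Figures were drawn with matplotlib 3.10.9.

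The members and lists were chosen with earlier results of these data known. Every member is named; signals on all arrays are given for members called by limma (none), for the largest and smallest RAE2.0 ratios of each role group in each comparison, and for members of opposite sign between types or probe sets, and signals of further members were added to complete the groups. For limma, the 3 lowest p-values per comparison were printed after the values were seen. Alternatives changed the floor, filter, probe set rule, scaling, block and arrays. Promoters were taken from RefSeq (GRCr8) and matched by symbol. Counts without genes that passed the U34A filter through TEG3 alone were added after seeing the data.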

Additional observations from a re-analysis of the deposited data

How the results depend on the processing

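Members called by limma numbered 0 in each comparison under every alternative run, which says nothing of stability, since the count could not fall and several alternatives called at most 1 gene of all. The counts of members at least 2-fold apart kept to within 1.5 times under each, with these exceptions. In TEG3 against OEC Lp on U34A, 2 members and not 1 were at least 2-fold higher without a floor, with a floor at the 20th percentile or with the brightest probe set per gene. In OEC Lp against OEC Ep on RAE2.0, 0 and not 1 was higher with ratios centred on the median of all genes, an alternative chosen after seeing the data. Calls over all genes varied. For TEG3 over OEC Ep, OEC Lp over OEC Ep and TEG3 over OEC Lp they numbered 139, 192 and 39; without a floor 11, 66 and 0; with dim probe sets kept 1, 1 and 0; and without the replicate block 0, 0 and 0. With the 4 arrays of the 2 populations they numbered 0, 38 and 0. A floor at the 20th percentile gave 124 for OEC Lp over OEC Ep and 4 for TEG3 over OEC Lp. Probe sets above the floor on all arrays gave 84 for TEG3 over OEC Ep and 77 for OEC Lp over OEC Ep, over 2089 genes. Leaving out each array in turn gave 0 to 0, 0 to 38 and 0 to 0, the lone array of a population being taken to vary as the rest do; the 38 came without either TEG3 array and the 0 without an OEC Lp or OEC Ep array. The cause of these moves was not tested. The 9 log2 folds printed from limma kept their sign under the alternatives run for them. They were picked for the lowest p-values after the values were seen, so a kept sign says little of stability. For Kif11 and Smc2 the filter had also set the direction on U34A. The filter on all arrays gave no value for Kifc1, Kif11 and Smc2, and centred ratios were not fitted. Leaving out 1 array in turn gave, for TEG3 over OEC Ep, 1.10 to 1.57 for Cdc25b, 1.10 to 2.10 for Smc4 and 1.51 to 3.31 for Kifc1. For OEC Lp over OEC Ep it gave 0.55 to 1.03 for Cdc25b, 0.50 to 2.55 for Kifc1 and 0.42 to 1.63 for Cdc20, and for TEG3 over OEC Lp 0.99 to 2.07 for Kif11, 0.72 to 1.22 for Smc2 and 0.62 to 1.46 for Plk1. The number of arrays limits the precision, and each array type rests on 1 array per population.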
